A study of Mus musculus with 2 samples.

Results

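The 9 genes described here, Foxf2, Tbx1, Tcf4, Isl1, Nkx2-3, Scx, Twist1, Hlx and Nr2f2, encode transcription factors and were taken from 27998 gene names because their levels set subtypes of aortic endothelial cells apart in these same libraries. The values that chose them are the levels by subtype, so the contrast between subtypes below is a description and supports nothing by itself. Endothelium of the aorta from 1 old mouse (18 months) and 1 young mouse (8 weeks) of the C57BL6/J strain was loosened with trypsin, lifted with a blade after the adventitia was dissected away, and profiled as single cells with a droplet method that counts the 3′ ends of transcripts as unique molecular identifiers (UMIs). The labels give no treatment, genotype or sex for either animal, and each age is 1 animal and 1 library. Age, animal and library therefore cannot be told apart, no test between ages was made, and every 95% interval below covers counting error only.

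Arterial endothelium is not uniform along a vessel. Cells that line different stretches of the aorta arise next to tissues of different embryonic origin, among them the neural crest and the heart fields, and transcription factors set up in the embryo can stay on in the adult wall. Tbx1 and Isl1 are known from the embryonic tissue that builds the outflow tract of the heart, Nkx2-3 from vessels of the gut and spleen, and Nr2f2 from veins and lymphatic vessels. Tcf4, Scx and Twist1 are basic helix-loop-helix proteins, which bind DNA in pairs at E-boxes.

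The old library held 3408 barcodes with a median of 4737 UMIs, and the young library held 1366 barcodes with a median of 7558.5 UMIs. Endothelial-like cells numbered 2432 in old and 1096 in young, and all 10 of the endothelial markers used (Pecam1, Cdh5, Tie1 and others) were detected in both of their subtypes in both libraries. All 10 were also detected in fibroblast-like cells of both libraries. Clusters were named by these markers, so their detection is a description only. Whole clusters were assigned to a subtype by 2 sets of genes that are not among the 9. Coch (cochlin, a secreted matrix protein), Sost (sclerostin, a Wnt antagonist) and Adra2a (an adrenergic receptor) mark the Coch/Sost subtype. Bcan (brevican, a proteoglycan) and Frzb (a secreted Wnt antagonist) mark the Bcan/Frzb subtype. The Coch/Sost subtype held 453 of 2432 old endothelial-like cells (18.6%, exact interval 17.1 to 20.2%) and 446 of 1096 young ones (40.7%, 37.8 to 43.7%). The Bcan/Frzb subtype held 1971 old and 649 young cells, and a small cluster of 8 old cells and 1 young cell stayed apart.

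Different clusters filled the same subtype in the 2 libraries. Of the Coch/Sost cells, cluster 2 held 451 old and 51 young cells and cluster 1 held 2 old and 395 young cells. Of the Bcan/Frzb cells, clusters 5 and 7 held 450 and 1491 old cells but 26 and 31 young cells, while cluster 0 held 30 old and 592 young cells. Cluster 0 lies closest to the line between the subtypes: the genes of the Coch/Sost set were seen in a mean of 21.2% of its cells and those of the Bcan/Frzb set in 26.5%. In clusters 5 and 7 the same 2 means were 24.2% and 56.2%, and 15.9% and 32.3%. The young Bcan/Frzb values thus rest mainly on cells with a weak form of that signature. The 9 genes were left out of the clustering, and clusters split by library may reflect the library as well as a cell state.

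Levels are UMIs summed over the cells of a group and scaled to the total UMIs of that group as CPM (counts per 1000000). Because 3′ tags are counted, CPM can be compared between groups for 1 gene but not taken as transcript per length between genes. To compare shares of cells with at least 1 UMI, every cell was thinned to 3100 UMIs and shallower cells were left out, which left 371 old and 421 young Coch/Sost cells and 1489 old and 569 young Bcan/Frzb cells.

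Foxf2, Tbx1 and Tcf4 were the members with higher levels in the Coch/Sost subtype. Foxf2 (chr13:31625816-31631403, plus strand, GRCm38) is a forkhead factor known from mesenchyme and from brain vessels. Tbx1 (chr16:18580979-18590671, minus strand) is a T-box factor whose loss is linked to the heart and great vessel defects of DiGeorge syndrome. The 240 bases that end 10 bases before the annotated start of Foxf2 and of the outer start of Tbx1 are shown because both genes share the same pattern over subtypes. They were read from RefSeq on GRCm38.p6, and capitals mark E-boxes (CANNTG), the site of the helix-loop-helix members.
Foxf2, chr13:31625566-31625805, plus strand: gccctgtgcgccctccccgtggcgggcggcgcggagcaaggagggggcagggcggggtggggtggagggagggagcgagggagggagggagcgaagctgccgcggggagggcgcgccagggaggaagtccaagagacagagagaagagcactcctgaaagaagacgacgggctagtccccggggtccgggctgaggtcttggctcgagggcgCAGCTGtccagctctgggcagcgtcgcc
Tbx1, chr16:18590682-18590921, minus strand: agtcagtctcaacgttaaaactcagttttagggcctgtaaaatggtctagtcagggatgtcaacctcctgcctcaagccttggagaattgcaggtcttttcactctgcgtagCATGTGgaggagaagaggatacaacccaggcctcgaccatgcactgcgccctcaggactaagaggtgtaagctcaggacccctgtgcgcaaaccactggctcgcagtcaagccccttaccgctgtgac
Each window shown held 1 E-box, a motif present in 65.0% of 32851 promoter windows of the same length. The window of the other Tbx1 start (chr16:18588910-18589149) held 0 E-boxes. The forkhead motif GTAAACA (3.06% of windows), the T-box motif GGTGTG (15.7%) and the nuclear receptor motif AGGTCA (13.5%), each searched on both strands, were in neither window shown. Of the Foxf2 window, 227 bases also lie in exons of 1700018A04Rik, a neighbouring RNA gene.

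Foxf2 stood at 29.8 CPM in old and 29.9 CPM in young Coch/Sost cells, against 2.77 CPM in old and 1.15 CPM in young Bcan/Frzb cells. The Coch/Sost over Bcan/Frzb ratio was 3.43 on the log2 scale in the old library (2.83 to 4.06, 87 against 32 UMIs) and 4.70 in the young library (3.54 to 6.17, 148 against 6 UMIs). No other gene had a higher ratio in the old library among 11435 genes measured, and 1 gene did in the young library among 10924. Foxf2 was sparse, with a UMI in 5.93% of old and 8.79% of young thinned Coch/Sost cells. In Bcan/Frzb cells the thinned shares were 0.873% in old and 0.351% in young. The old share (13 of 1489 cells) stood beside 0.909% of old macrophage-like cells (1 of 110, exact interval 0.0230 to 4.96%), at median depths of 4967 and 4092 UMIs. Macrophage-like cells numbered under 20 in the young library. Whether Foxf2 UMIs in either group came from free RNA or from the cells themselves was not tested. Fibroblast-like cells, which may express Foxf2, had a share of 1.49% in old and 0.450% in young.

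Tbx1 stood at 88.3 CPM in old and 87.5 CPM in young Coch/Sost cells, against 12.7 CPM in old and 13.4 CPM in young Bcan/Frzb cells. Its log2 ratio was 2.80 in the old library (2.50 to 3.10) and 2.70 in the young library (2.34 to 3.09). A UMI was seen in 25.1% of old and 21.4% of young thinned Coch/Sost cells, against 3.90% and 3.87% of old and young Bcan/Frzb cells. Tcf4 is an E protein, the widely expressed partner with which tissue-specific helix-loop-helix proteins pair, and a different gene from the Wnt effector that was once also called TCF4. It was the most widely seen of the 3, with 198 CPM in old and 178 CPM in young Coch/Sost cells, against 35.8 CPM in old and 29.96 CPM in young Bcan/Frzb cells. Its log2 ratio was 2.47 in old (2.28 to 2.65) and 2.57 in young (2.33 to 2.83), and a UMI was seen in 45.01% and 44.2% of thinned old and young Coch/Sost cells. For all 3 genes the groups ordered the same way in both libraries. The members were chosen on this contrast, so nothing is read from that order.

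Isl1, Nkx2-3, Twist1 and Hlx were the members with higher levels in the Bcan/Frzb subtype. Isl1 (chr13:116298281-116309689, minus strand) is a LIM-homeodomain factor that marks progenitors of the heart outflow tract and is also required for motor neurons and pancreatic islets. Nkx2-3 (chr19:43612325-43615892, plus strand) is a homeodomain factor of the NK2 class, needed in mice for normal spleen and gut vessels. The windows of this pair are shown because their levels were the most alike of all members over the cell groups, and capitals mark E-boxes and the homeodomain core TAAT on either strand.
Isl1, chr13:116309699-116309938, minus strand: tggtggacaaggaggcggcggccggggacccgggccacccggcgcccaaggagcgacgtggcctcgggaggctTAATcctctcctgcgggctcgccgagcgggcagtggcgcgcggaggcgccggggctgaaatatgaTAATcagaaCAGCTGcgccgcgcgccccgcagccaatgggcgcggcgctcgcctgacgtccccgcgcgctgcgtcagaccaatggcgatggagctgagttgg
Nkx2-3, chr19:43612075-43612314, plus strand: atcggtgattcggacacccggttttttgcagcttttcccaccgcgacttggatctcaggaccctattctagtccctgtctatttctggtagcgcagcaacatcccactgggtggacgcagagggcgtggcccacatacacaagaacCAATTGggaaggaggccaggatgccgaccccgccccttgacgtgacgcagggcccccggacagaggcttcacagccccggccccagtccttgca
Each window held 1 E-box, and the Isl1 window also held 2 TAAT cores, a motif found in 54.2% of all windows, none of which overlapped the E-box. The NK2 core AAGTG, present in 39.5% of windows, was in neither.

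Isl1 stood at 39.3 CPM in old and 14.3 CPM in young Coch/Sost cells, against 176 CPM in old and 142 CPM in young Bcan/Frzb cells. The Coch/Sost over Bcan/Frzb ratio was -2.16 on the log2 scale in the old library (-2.45 to -1.89) and -3.30 in the young library (-3.68 to -2.95). Nkx2-3 stood at 40.4 CPM in old and 17.6 CPM in young Coch/Sost cells, against 212 CPM in old and 152 CPM in young Bcan/Frzb cells, with log2 ratios of -2.39 (-2.67 to -2.13) and -3.11 (-3.45 to -2.79). Isl1 was seen in 41.2% of old and 32.5% of young thinned Bcan/Frzb cells, and Nkx2-3 in 48.6% and 38.7%. Both genes were thus the most frequently detected members of this subtype in both libraries.

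Twist1 (chr12:33957671-33959829, plus strand), a helix-loop-helix factor of embryonic mesenchyme, stood at 15.1 CPM in old and 39.6 CPM in young Coch/Sost cells, against 45.9 CPM in old and 114 CPM in young Bcan/Frzb cells. Its log2 ratio was -1.61 in old (-2.09 to -1.16) and -1.52 in young (-1.77 to -1.29). Hlx (chr1:184727140-184732619, minus strand), a homeobox factor known from gut mesenchyme and from lymphoid cells, stood at 11.3 CPM in old and 4.65 CPM in young Coch/Sost cells, against 27.8 CPM in old and 17.3 CPM in young Bcan/Frzb cells. Its log2 ratio was -1.30 in old (-1.86 to -0.78) and -1.90 in young (-2.62 to -1.22). Hlx was in 1.66% of thinned young Coch/Sost cells, beside 2.25% of young fibroblast-like cells, which may express the gene and so give no background level.

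Scx differed little between the subtypes, and Nr2f2 was too sparse for a ratio. Scx (chr15:76457452-76459458, plus strand, inside Bop1 on the other strand), the helix-loop-helix factor of tendon progenitors, stood at 24.97 CPM in old and 48.7 CPM in young Coch/Sost cells, against 20.4 CPM in old and 43.4 CPM in young Bcan/Frzb cells. The log2 ratios of 0.29 (-0.11 to 0.68) and 0.17 (-0.10 to 0.43) lay within counting error of 0. Nr2f2 (chr7:70351944-70366735, minus strand), an orphan nuclear receptor of vein identity, had 3 old and 5 young UMIs in Coch/Sost cells and 13 old and 6 young UMIs in Bcan/Frzb cells. These are under the minimum of 20 UMIs for a ratio in either library.

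In all, 3 of the 8 measured members were at least 2-fold higher in the Coch/Sost subtype and 4 were at least 2-fold lower, with the same genes on each side in both libraries. Across all genes measured, 1.73% were higher and 3.83% lower past 2-fold in the old library, and 1.91% were higher and 2.99% lower in the young library. Since the members were chosen on this contrast, nothing is read from these shares. When cluster 0 was placed in neither subtype, a choice made after seeing the data, only 57 young Bcan/Frzb cells were left. The young log2 ratio of Tcf4 was then 0.55 (0.08 to 1.05), that of Scx 1.64 (0.39 to 3.27) and that of Twist1 0.08 (-0.76 to 1.05), while Foxf2 (1.67), Tbx1 (1.63), Isl1 (-3.01), Nkx2-3 (-2.68) and Hlx (-2.24) stayed past 2-fold. With subtypes taken cell by cell, the old ratios of Nkx2-3 (-0.92), Twist1 (-0.87) and Hlx (-0.39) were under 2-fold.

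**Figure D1:**
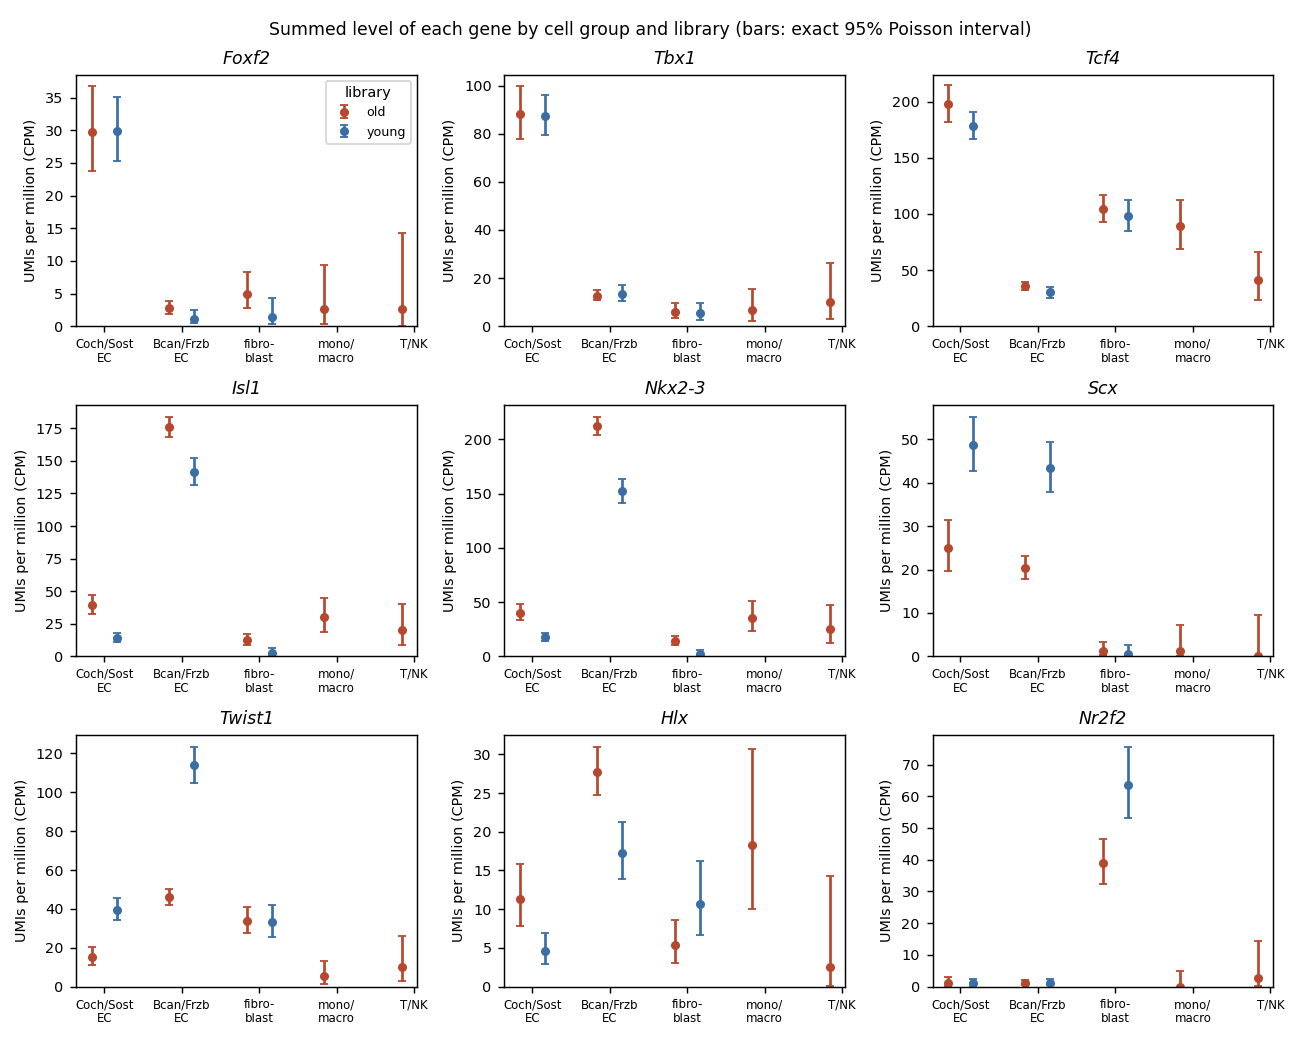
Each panel plots 1 gene: the level in CPM (linear axis from 0) for 5 cell groups, old in red at the left and young in blue at the right of each group, with exact 95% Poisson intervals. Young macrophage-like and T or NK-like cells numbered under 20 and are not drawn. Among the 5 groups drawn, Foxf2, Tbx1 and Tcf4 sit highest in Coch/Sost cells, Isl1 (176 and 142 CPM) and Nkx2-3 (212 and 152 CPM) in Bcan/Frzb cells, and Nr2f2 in fibroblast-like cells.

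The single clusters show how even these levels were inside a subtype. In old cells of clusters 5 and 7, Isl1 stood at 179 and 175 CPM, Nkx2-3 at 182 and 226 CPM, and Tbx1 at 12.9 and 12.7 CPM. Twist1 stood at 58.3 CPM in cluster 5 and 39.0 CPM in cluster 7, and Hlx at 19.2 and 31.6 CPM. In young cells, cluster 0 held Isl1 at 143 CPM, Nkx2-3 at 155 CPM and Foxf2 at 0.614 CPM. The 26 young cells of cluster 5 differed from the other Bcan/Frzb clusters, with Tcf4 at 200 CPM (37 UMIs), Tbx1 at 43.2 CPM (8 UMIs) and Isl1 at 70.1 CPM (13 UMIs). The Coch/Sost subtype was close to 1 cluster per library, and the 51 young cells of cluster 2 held Tbx1 at 88.1 CPM and Tcf4 at 230 CPM (60 UMIs).

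For Tcf4, Tbx1, Isl1 and Nkx2-3 the same order appeared cell by cell when cells were arranged by the UMIs of Coch, Sost and Adra2a in the thinned cell. Among 1060 old cells with none of these UMIs, Tcf4 was seen in 11.3%, and among 67 old cells with 5 or more it was seen in 61.2%. The young shares at the same ends were 13.7% of 453 cells and 46.2% of 104 cells. Tbx1 went the same way, at 3.96% and 29.9% in old and 4.64% and 27.9% in young. Isl1 had 41.1% at 0 UMIs and 7.46% at 5 or more in old, and 30.7% and 0 of 104 cells (exact interval 0 to 3.48%) in young. Nkx2-3 ran beside it, with 47.2% and 8.96% in old and 34.9% and 3.85% in young. Old Hlx had no steady order, at 8.02% at 0 UMIs, 10.1% at 1, 3.80% at 2, 4.79% at 3 to 4 and 5.97% at 5 or more. Young Foxf2 was at 0.442% at 0 UMIs, 10.5% at 2, 2.86% at 3 to 4 and 13.5% at 5 or more. Scx stayed between 4.89% and 7.46% in old and between 8.65% and 12.8% in young. Arranged by Bcan and Frzb UMIs instead, old Scx was at 5.38% at 0 UMIs, 4.21% at 2, 10.7% at 3 to 4 and 26.7% of 15 cells at 5 or more. Young Scx was at 10.0% at 0, 19.4% at 2 and 6.67% of 15 cells at 3 to 4. From 0 to 3 to 4 of these UMIs, old Isl1 went from 30.1% to 47.6%, Twist1 from 9.89% to 17.9% and Hlx from 8.03% to 9.52%. These cells are also those that were clustered, so either arrangement describes the subtypes and is not separate support for them.

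**Figure D2:**
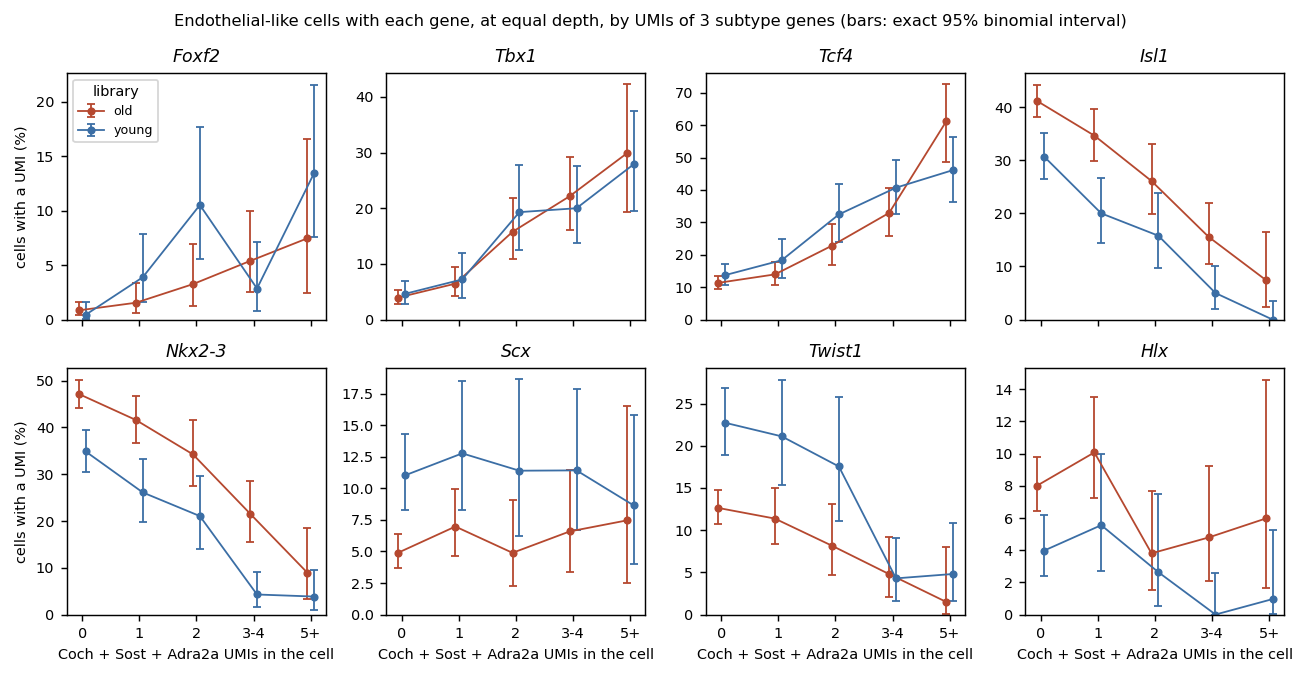
Each panel plots the percentage of endothelial-like cells with a UMI of 1 gene, at equal depth, against the number of Coch, Sost and Adra2a UMIs in the same cell, with exact 95% binomial intervals (old red, young blue). Tbx1 and Tcf4 shares are higher to the right, as are Foxf2 shares apart from a low young value at 3 to 4 UMIs. Isl1, Nkx2-3 and Twist1 shares are higher to the left. Old Hlx has no steady order, and Scx is flat within its intervals.

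Pairs were described where the product of the 2 genes' shares predicted at least 5 cells with both, which held for 24 of 36 pairs in old and 23 in young. Over all endothelial-like cells, 4 pairs in old and 7 in young were together in less than 1 in 2 of the cells the product gives, and 2 pairs in old and 0 in young were together over 2 times as often. Tbx1 and Tcf4 shared 61 old cells where the product gives 25.6 (ratio 2.38, 1.83 to 3.05) and 44 young cells where it gives 27.0 (ratio 1.63, 1.19 to 2.17). Foxf2 and Tcf4 shared 12 old cells against 5.86 (2.05, 1.06 to 3.57) and 13 young cells against 9.33 (1.39, 0.744 to 2.37). Co-detection ran with the subtype in each of these pairs, which over pooled cells follows from how the members were chosen.

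All 6 pairs of Foxf2, Tbx1 or Tcf4 with Isl1 or Nkx2-3 were seen together less often than the product gives, in both libraries. Genes chosen for levels that differ between subtypes give this direction over pooled cells, so it is a description and not separate support. Tbx1 and Nkx2-3 shared 25 old cells against a product of 62.8 (ratio 0.398, 0.258 to 0.585) and 10 young cells against 27.3 (0.367, 0.176 to 0.672). Foxf2 and Isl1 shared 3 old cells against 12.2 (0.246, 0.0508 to 0.719) and 1 young cell against 7.87 (0.127, 0.00322 to 0.706). Foxf2 and Nkx2-3 shared 6 old cells against 14.4 and 0 young cells against 9.41. Tcf4 and Isl1 shared 67 old cells against 109 (0.617, 0.480 to 0.780) and 13 young cells against 47.8 (0.272, 0.145 to 0.463). Pairs with Hlx were closer to their product: Tbx1 and Hlx gave 0.938 in old (0.469 to 1.67), and Tcf4 and Hlx gave 0.669 in old (0.383 to 1.08) and 1.05 in young (0.452 to 2.05).

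**Figure D3:**
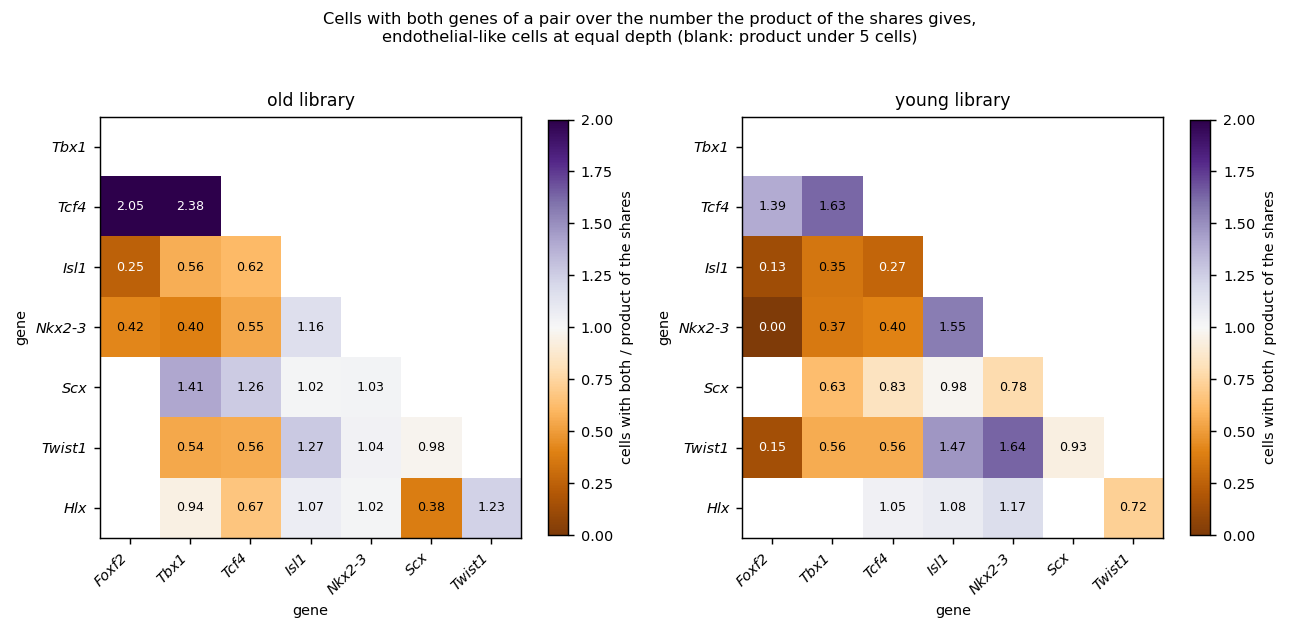
Heat maps of the cells with both genes of a pair divided by the number that the product of the 2 shares gives, for old (left) and young (right) endothelial-like cells at equal depth, with the ratio printed in each square and blank squares where the product is under 5 cells. Ratios above 1 (purple) join Tbx1 with Tcf4 (2.38 and 1.63) and Isl1 with Nkx2-3 (1.16 and 1.55), and ratios below 1 (orange) stand between these sets.

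Within Coch/Sost cells, 0 of 11 described pairs in old and 0 of 9 in young were together in less than 1 in 2 of the cells the product gives. Within Bcan/Frzb cells 2 of 21 pairs in old (Foxf2 with Isl1 at 0.187, Scx with Hlx at 0.447) and 3 of 16 in young (Twist1 with Hlx at 0.318, Tbx1 with Twist1 at 0.362, Tbx1 with Isl1 at 0.419) were, on 1 to 3 shared cells each and with intervals that included 1. Isl1 and Nkx2-3 shared 304 old Bcan/Frzb cells against a product of 298 (ratio 1.02, 0.919 to 1.13) and 71 young ones against 71.5 (0.993, 0.786 to 1.23). Tbx1 and Tcf4 shared 50 old Coch/Sost cells against 41.9 (1.19, 0.901 to 1.54) and 39 young ones against 39.8 (0.981, 0.706 to 1.32). Tcf4 and Isl1 in Bcan/Frzb cells gave 0.930 in old (0.702 to 1.21) and 0.554 in young (0.254 to 1.04). Tbx1 and Nkx2-3 in old Bcan/Frzb cells gave 0.603 (0.352 to 0.962), the only described pair inside a subtype whose interval lay wholly to 1 side of 1.

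UMIs of both sets also occurred in the same barcode. Of thinned old Coch/Sost cells, 46.9% had a UMI of Foxf2, Tbx1 or Tcf4 and none of Isl1, Nkx2-3 or Hlx, 12.4% had both and 10.2% had only the other set. Of young Coch/Sost cells the 3 shares were 56.8%, 4.51% and 4.04%. Of old Bcan/Frzb cells, 4.57% had only the first set, 8.80% had both and 63.3% had only Isl1, Nkx2-3 or Hlx, and in young the shares were 6.33%, 5.98% and 54.7%. Between 23.3% and 34.7% of cells in these 4 groups had a UMI of neither set at 3100 UMIs. The 2 sets were drawn after the levels were seen. The part of free RNA and of remaining doublets in the share with both sets was not tested.

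**Figure D4:**
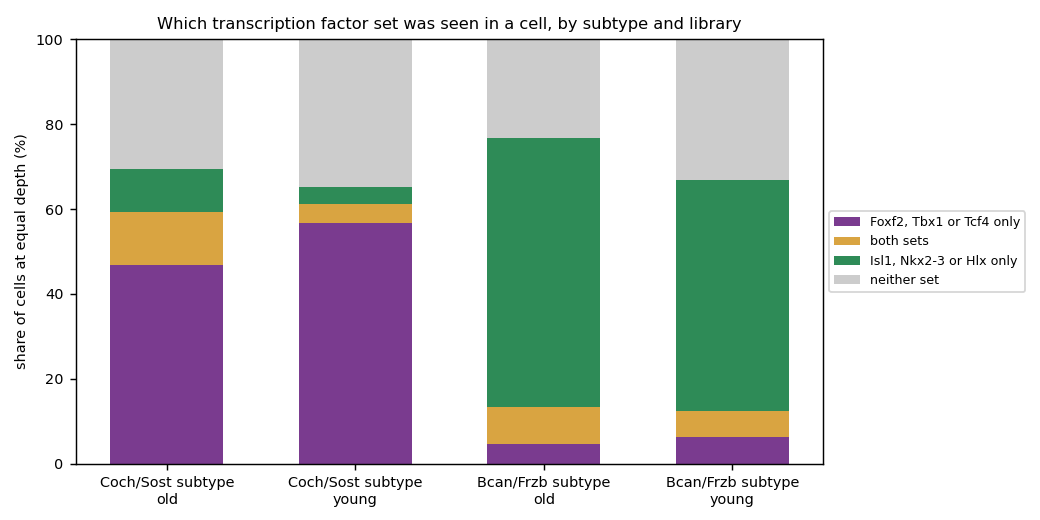
Stacked bars (0 to 100% of thinned cells) for old and young Coch/Sost and old and young Bcan/Frzb cells, divided by whether a cell held UMIs of Foxf2, Tbx1 or Tcf4 only, of both sets, of Isl1, Nkx2-3 or Hlx only, or of neither. The share with both sets is 12.4% in old and 4.51% in young Coch/Sost cells, and 8.80% in old and 5.98% in young Bcan/Frzb cells.

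The members were then read in the other cell classes. The 10 endothelial markers summed to 1585 CPM in old macrophage-like cells. Whether UMIs of the members there came from free RNA, doublets or the cells themselves was not tested. Isl1 and Nkx2-3 appeared at low level in every old class of at least 20 cells. Isl1 stood at 12.6 CPM in old fibroblast-like, 30.03 CPM in macrophage-like, 20.4 CPM in T or NK-like and 24.2 CPM in erythroid-like cells. At equal depth it was in 9.70% of old Coch/Sost cells (6.89 to 13.2%) and in 8.18% of old macrophage-like cells (3.81 to 14.96%), at median depths of 5662 and 4092 UMIs. It was in 2.99% of old fibroblast-like cells (1.64 to 4.96%), whose interval lies below that of Coch/Sost cells, and in 0 of 25 erythroid-like cells (0 to 13.7%). Old Coch/Sost Isl1 thus stood above fibroblast-like cells but was not separable from macrophage-like cells. The ratio of Isl1 to Nkx2-3 UMIs was 0.830 in old Bcan/Frzb cells (2036 to 2454), 0.975 in Coch/Sost cells, 0.905 in fibroblast-like and 0.852 in macrophage-like cells (23 to 27). On fewer UMIs it was 0.8 in old T or NK-like cells (8 to 10), 1.33 in old erythroid-like cells (4 to 3) and 1.2 in young fibroblast-like cells (6 to 5). In young fibroblast-like cells Isl1 stood at 2.92 CPM and Nkx2-3 at 2.43 CPM.

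Tcf4 and Twist1 were also present in fibroblast-like cells. Tcf4 stood at 104 CPM in old and 98.2 CPM in young fibroblast-like cells and at 88.8 CPM in old macrophage-like cells, all above its level in Bcan/Frzb cells, but at 6.05 CPM in erythroid-like cells (1 UMI). Twist1 stood at 33.6 CPM in old and 33.1 CPM in young fibroblast-like cells, and at 5.22 CPM in old macrophage-like cells. Hlx reached 18.3 CPM (9.99 to 30.7, 14 UMIs) in old macrophage-like cells and 10.7 CPM in young fibroblast-like cells. Scx was close to absent outside the endothelium, with 1.33 CPM in old fibroblast-like cells (4 UMIs), 0.486 CPM in young ones (1 UMI) and 0 UMIs in old T or NK-like and erythroid-like cells.

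Nr2f2 was the only member held mainly by another class, by the criterion of over 3 times the endothelial level. It stood at 38.9 CPM in old and 63.7 CPM in young fibroblast-like cells, which is 13.5 and 53.9 times its level in endothelial-like cells. The 2 fibroblast clusters differed in it. In cluster 3, led by F3, Gdf10 and Mfap4, 33.3% of old (7 of 21) and 33.0% of young (29 of 88) thinned cells had a UMI, against 8.93% of old and 11.9% of young cells in cluster 4, led by Ccl11 and Dact2. Among endothelial-like cells, 26 of the 42 old Nr2f2 UMIs (61.9%) came from the 8 cells of the cluster that stayed apart, in 7 of them. That cluster was led by Ccl21a, Mmrn1 and Reln, and 5 of its 9 cells had a UMI of Prox1, the master factor of lymphatic endothelium, and 9 of 9 had Lyve1. The same 8 old cells held 28 UMIs of Tcf4 and 13 of Tbx1, 1 of Hlx and none of Foxf2, Isl1, Nkx2-3, Scx or Twist1. Of these UMIs, 17 of the 28 for Tcf4 lay in 1 cell, and 11 of the 26 for Nr2f2 lay in 1 cell. Tcf4 thus stood at 689 CPM (458 to 996) and Tbx1 at 320 CPM (170 to 547) in this cluster. Both were above their levels in old Coch/Sost cells (198 and 88.3 CPM), on 8 cells only.

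Between the old and the young library, 4 members were higher in old and 5 were lower over all endothelial-like cells. Over all endothelial-like cells Isl1 stood at 148 CPM in old and 79.6 CPM in young (log2 ratio 0.90, 0.78 to 1.01), Nkx2-3 at 177 and 86.5 CPM (1.03, 0.92 to 1.15) and Hlx at 24.4 and 11.2 CPM (1.12, 0.82 to 1.44). Foxf2 stood at 8.19 CPM in old and 15.2 CPM in young (-0.89, -1.25 to -0.53), Tbx1 at 28.8 and 49.7 CPM (-0.79, -0.98 to -0.60) and Tcf4 at 70.2 and 103 CPM (-0.55, -0.67 to -0.42). Scx stood at 21.3 CPM in old and 45.9 CPM in young (-1.11, -1.32 to -0.90) and Twist1 at 39.6 and 77.6 CPM (-0.97, -1.13 to -0.82). Of the 9 members, 3 were higher and 1 lower past 2-fold in old, against 3.93% of all genes higher and 3.29% lower. Without cells that held 2 or more markers of another class, Nkx2-3 stood at 0.52 and Hlx at 0.59. These sums mix subtypes whose shares differ between the libraries, as given above, and for Nr2f2 the small cluster that stayed apart decided the value. Its log2 ratio was 1.29 (0.34 to 2.35) with that cluster and 0.03 (-1.17 to 1.28) without it.

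Within the Coch/Sost subtype the 3 genes of that subtype were level between the libraries. The old over young log2 ratio was -0.01 for Foxf2 (-0.41 to 0.39), 0.01 for Tbx1 (-0.22 to 0.24) and 0.15 for Tcf4 (-0.0036 to 0.30). Isl1 (1.46, 1.02 to 1.90), Nkx2-3 (1.20, 0.79 to 1.62) and Hlx (1.28, 0.47 to 2.12) were higher in old, and Twist1 (-1.40, -1.90 to -0.92) and Scx (-0.96, -1.36 to -0.58) were lower. That is 3 of 8 higher and 1 of 8 lower past 2-fold, against 2.41% and 3.1% of all genes. From thinned cells alone Twist1 stood at -0.55 (-1.41 to 0.27). Inside cluster 2, which held nearly all the old cells of this subtype, Scx stood at 23.7 CPM in old and 23.0 CPM in young (6 UMIs) and Twist1 at 15.1 CPM in old and 11.5 CPM in young (3 UMIs). In cluster 1, which held most of the young cells, Scx stood at 50.1 CPM and Twist1 at 41.2 CPM in young. Cluster and library nearly coincide, so cluster, age and library cannot be told apart for the lower Scx and Twist1. Beside the higher Isl1 and Nkx2-3 stand the same genes in fibroblast-like cells, where Isl1 was at 12.6 CPM in old and 2.92 CPM in young and Nkx2-3 at 14.0 CPM in old and 2.43 CPM in young. The part of free RNA in these 2 ratios was not tested. Markers of other classes also differed. The 6 erythroid markers summed to 567 CPM in old and 24.6 CPM in young Coch/Sost cells and to 615 CPM in old and 25.9 CPM in young Bcan/Frzb cells. The 9 macrophage markers summed to 94.1 CPM in old and 10.7 CPM in young Coch/Sost cells and to 117 CPM in old and 18.1 CPM in young Bcan/Frzb cells. Their part in the ratios of either subtype was not tested.

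Within the Bcan/Frzb subtype, Scx (-1.09, -1.36 to -0.82) and Twist1 (-1.31, -1.48 to -1.14) were lower in old past 2-fold, against 2.91% of all genes. Isl1 (0.31, 0.19 to 0.44), Nkx2-3 (0.48, 0.36 to 0.60) and Hlx (0.68, 0.34 to 1.04) were higher by less than 2-fold, and Tbx1 (-0.08) and Tcf4 (0.26) lay within counting error of 0. Foxf2 passed 2-fold at 1.26, on 32 old and 6 young UMIs, with an interval (-0.01 to 2.81) that included 0, against 3.74% of all genes higher. With cluster 0 in neither subtype, where 57 young cells remain, the values were -1.75 for Foxf2, 0.36 for Scx, 0.26 for Twist1 and -1.76 for Tcf4. The 26 young cells of cluster 5 then gave 37 Tcf4 UMIs (200 CPM, against 14.9 CPM in young cluster 7) and 3 Foxf2 UMIs. The Bcan/Frzb ratios between libraries thus depend on whether cluster 0 is counted, and without it they rest on few cells. Inside single clusters Scx and Twist1 were not lower past 2-fold in old. Scx stood at 52.4 CPM in old (7 UMIs) and 45.2 CPM in young in cluster 0, at 26.98 CPM in old and 10.8 CPM in young (2 UMIs) in cluster 5, and at 17.0 CPM in old and 22.4 CPM in young (3 UMIs) in cluster 7. Twist1 stood at 135 CPM in old (18 UMIs) and 119 CPM in young in cluster 0, at 58.3 CPM in old and 43.2 CPM in young (8 UMIs) in cluster 5, and at 39.0 CPM in old and 29.9 CPM in young (4 UMIs) in cluster 7. Old and young cells filled different clusters, so cluster, age and library cannot be told apart for these lower sums. In fibroblast-like cells Twist1 stood at 33.6 CPM in old and 33.1 CPM in young.

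**Figure D5:**
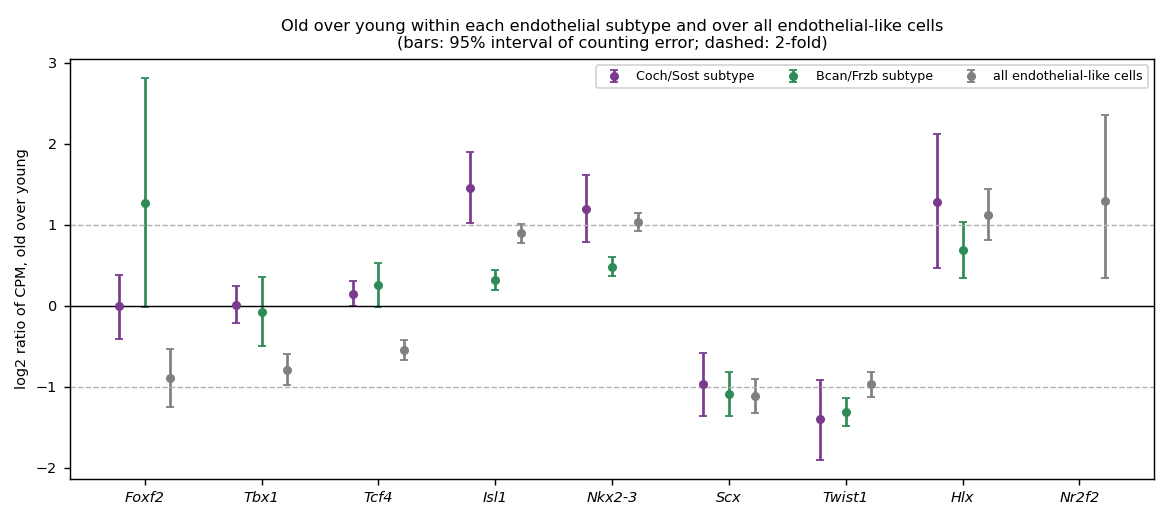
Log2 ratios of CPM, old over young, for each gene in Coch/Sost cells (purple), Bcan/Frzb cells (green) and all endothelial-like cells (grey), with 95% intervals of counting error and dashed lines at 2-fold. Foxf2, Tbx1 and Tcf4 lie near 0 in Coch/Sost cells but below 0 over all cells, while Scx and Twist1 lie below 0 in all 3.

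The same contrasts were read for lists of related transcription factors, beside the shares of all genes past 2-fold between subtypes given above (1.73% higher and 3.83% lower in old, 1.91% and 2.99% in young). Since the members were chosen on this contrast, the lists are not set against them. Of 20 general endothelial factors such as Erg, Fli1 and the Klf genes, 0 passed 2-fold between the subtypes in either library (median log2 ratio -0.03 in old and 0.01 in young, against -0.02 and -0.03 over all genes). Sox17, an arterial factor, was the highest at 0.64 in old and 0.94 in young, and Ets2 (-0.60) in old and Epas1 (-0.51) in young were the lowest. Of the partner helix-loop-helix and Id genes, 7 of 8 were measured and 0 passed 2-fold. Tcf12, the closest relative of Tcf4 on that list, stood at -0.25 in old and -0.24 in young. Of 22 genes of the members' families, 9 were measured in old and 8 in young. Among these Foxc2 was at -0.42 in old and -0.52 in young, and Tcf15 at -1.54 in old on 2 and 23 UMIs was the only gene past 2-fold.

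Of 15 factors of the cardiac and pharyngeal progenitors, 6 were measured in old and 5 in young, and 2 in old and 1 in young were lower in Coch/Sost cells past 2-fold. Eya1, a transcriptional cofactor of those progenitors, stood at -1.34 in old (21 against 210 UMIs) and -1.91 in young (21 against 83 UMIs), and Six2 stood at -2.60 in old on 1 and 24 UMIs. Of 12 companions of Scx and Twist1 in tendon and mesenchyme, 6 were measured and 0 passed 2-fold between subtypes, with Snai2 at -0.90 in old and -0.18 in young. Of 8 venous and lymphatic companions of Nr2f2, 4 were measured and 0 passed 2-fold.

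Between libraries, 0 or 1 gene of each list passed 2-fold in either direction in each endothelial group, where 2.41% to 3.93% of all genes were higher and 2.91% to 3.29% lower. Sox18, a vascular SoxF factor, stood at -1.95 in Coch/Sost and -1.95 in Bcan/Frzb cells, old over young, the lowest of the general endothelial list. Egr1, an immediate early gene that also acts in tendon, stood at -1.47 in Coch/Sost and -1.19 in Bcan/Frzb cells. The lists were described by these counts alone.

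Over 9 profiles (2 subtypes and the other classes of at least 20 cells in each library), the level of each member was set beside that of 10815 other genes. Isl1 and Nkx2-3 were most like each other (Pearson r = 0.99). Foxf2 was most like Elovl4 (0.96) and Mylk (0.90), Tbx1 like Pon3 (0.97) and Uaca (0.94), and Tcf4 like Usp24 (0.91) and Enah (0.90). Next after Nkx2-3, Isl1 was most like Ifitm10 (0.96), and Nkx2-3 like Mal (0.95). Scx was most like Smad6 and Cdc42ep1 (0.99 each), Twist1 like Sbds (0.98) and Tmub2 (0.97), Hlx like Mboat7 and Gm4673 (0.95 each) and Nr2f2 like Lrrc17 and Pi15 (1.00 each). These profiles share libraries and depth, so the values describe likeness over the same 9 points.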

How the data were processed

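The values deposited by the authors are UMI counts, whole numbers for each gene in each barcode without normalization, from Cell Ranger on GRCm38 per the submitters' processing notes. Its version, annotation and strand setting were not given in the sources used here. Each barcode held at least 1541 UMIs in old and 2287 in young, and 11 barcode sequences occur in both libraries. Totals were 19171045 UMIs in old and 12576023 in young.

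A minimum of 200 genes and a maximum of 10% mitochondrial UMIs removed 72 old and 1 young barcodes. Scrublet in scanpy 1.11.5 marked 6 old and 6 young barcodes (0.180% and 0.440%), also removed, which is too few for a working doublet filter, so doublets remain. The 3330 old and 1359 young cells were clustered together without batch correction (2000 variable genes without the 9 members, 30 components, 15 neighbours, Leiden resolution 0.5). A cluster was named for the class with the highest mean detection of its markers, with at least 3 markers in 25% of cells, unless another class led its top 10 genes. Ly6d and Cd79a among the leading genes show B cells mixed into the T or NK-like cluster. An endothelial cluster went to the subtype whose genes had the larger mean share, and stayed apart where both means were under 10%. That floor was set after seeing the clusters.

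Summed counts were scaled to CPM. Ratios needed 20 UMIs in both sides together and carry exact conditional binomial 95% intervals, while levels carry exact Poisson and shares exact Clopper-Pearson intervals. UMIs of 1 library are not replicates of an animal, so no test was made, and a value is called past 2-fold by size alone. Thinning used 3100 UMIs, the 25th percentile of old endothelial-like cells. The rule for named genes takes the 9 members, the 2 genes most like each (log2 of CPM plus 1, at least 100 UMIs) and the 2 highest and 2 lowest of each gene list. Of these list genes, some were given and the rest counted. The members, lists and subtype genes were chosen with earlier results of these data known.

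Gene coordinates are GENCODE vM21 on GRCm38, and no 50-base stretch of the last 500 bases of the members' transcripts occurred in another gene. Foxf2 shares exon bases with Gm27516 and Nr2f2 with B130024G19Rik, each on the other strand. Promoter sequences were found for 7 of 9 members. In counts simulated for the 11435 genes of the old subtype contrast the interval held the true ratio for 95.9% of genes and 98.1% of 4-fold genes were past 2-fold. These counts were drawn as Poisson, which the interval assumes. The simulation thus checks the code and not the effect of UMIs clumped in single cells. The software was matplotlib 3.10.9, igraph 0.11.9, pandas 2.3.3, scipy 1.17.1, numpy 2.4.6 and Python 3.11.15.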

Additional observations from a re-analysis of the deposited data

How the results depend on the processing

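No paired analysis was possible because each age is 1 library. Of 16 alternatives, 2 were chosen after seeing the data (cluster 0 in neither subtype, and the lymphatic-marked cluster left out). Of 25 log2 ratios past 2-fold, 21 kept their sign under every alternative that gave a value. The other 4 changed sign only with cluster 0 in neither subtype, where 57 young Bcan/Frzb cells remain: Twist1 between subtypes in young (0.075), and old over young in Bcan/Frzb cells Foxf2 (-1.75), Scx (0.36) and Twist1 (0.26). With subtypes taken cell by cell from the thinned marker UMIs, 1 member was lower past 2-fold between subtypes in old, against 4 in the main assignment. Isl1 was then at -1.09 and Nkx2-3 at -0.92.

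Counts of members past 2-fold between libraries rest on few genes close to 2-fold. Over all endothelial-like cells, leaving out cells with 2 or more markers of another class (1872 old and 786 young cells) gave 0 higher and 2 lower, and thinned sums gave 1 higher. In Coch/Sost cells the number higher was 1 without those marked cells. There the number lower was 2 with members among the variable genes, 2 with Scrublet calls kept, and 0 cell by cell, without marked cells or with thinned sums. In Bcan/Frzb cells the number higher was 0 cell by cell, without marked cells, with a minimum of 50 UMIs, with thinned sums and with cluster 0 in neither subtype, and the number lower was 1 with thinned sums.

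Pairs depend on depth. In old, pairs together less often numbered 2 with Scrublet calls kept, 1 without marked cells and 2 without thinning, and pairs together more often 0 without marked cells, 0 at 2000 UMIs and 4 without thinning. In young, pairs together less often numbered 4 at 2000 UMIs and 4 without thinning, and pairs together more often 1 at most 5% mitochondrial UMIs, 1 at 2000 UMIs, 1 with another seed and 2 without thinning. The cause was not tested. With 1 library per age, replicates could not be left out.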

Other observations

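A cluster of 11 old cells and 0 young cells was led by the smooth muscle genes Cnn1, Myh11 and Itga8. Sost, one of the genes that mark the Coch/Sost endothelium, had a UMI in 90.9% of these cells without thinning, while Coch was seen in 0. Of the transcription factors, Tcf4 was seen in 5 of the 11 cells (45.5%, exact interval 16.7 to 76.6%), Nr2f2 in 3, and Nkx2-3 and Twist1 in 2 each. Foxf2, Tbx1, Isl1, Scx and Hlx were seen in 0 of 11 cells, for which the exact interval reaches 28.5%. The summed level of the 10 endothelial markers in these cells was 1100 CPM, with Kdr and Emcn at 0. The part of endothelial RNA in these values was not tested.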
